A study of Mus musculus with 11 samples.

Results

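Cytochrome P450 genes were examined in gonadal white adipose tissue, the visceral fat pad beside the epididymis, of male C57Bl/6 mice at 50 weeks of age. The members were the loci of the deposited expression table whose symbol names a P450 gene (Cyp followed by family number, subfamily letter and gene number, or Cyp51). They numbered 101 of 42815 loci, held 103 symbols and fell into 40 subfamilies of 17 families. The 2 groups were 6 wild-type libraries and 5 14-3-3ζKO libraries, the latter from mice with a global null of Ywhaz, which encodes the adaptor protein 14-3-3ζ. Controls were littermates, and because the null is global, liver, gonads and immune cells carry it as well as adipocytes. The labels give normal chow as the feed, whereas the study names a low-fat diet for its comparison of gonadal fat in groups of these sizes. Neither source names a high-fat diet for these samples.

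P450 enzymes are membrane-bound haem proteins that insert 1 oxygen atom into fatty substrates, with electrons passed on by Por in the endoplasmic reticulum or by Fdx1 in mitochondria. Families CYP1 to CYP3 mainly clear foreign compounds and drugs and are richest in liver. Family CYP4 and parts of family CYP2 oxygenate fatty acids and eicosanoids, and the higher-numbered families make or break down sterols, bile acids, vitamin D, steroid hormones and retinoic acid.

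Levels are given as FPKM, the number of read fragments of a locus divided by transcript length and by the size of the library, and each P450 locus had 1 value per genotype. A locus was read as expressed where the higher group reached 1 FPKM, and 36 of the 101 loci did so. A locus was called 2-fold different where the ratio of the group values, after adding 1 FPKM to each, was at least 2. On this scale the fold of a low gene is understated, and since a group is 1 value, such a call carries no error and no p-value. Only Cyp2f2 had values for each of the 11 libraries. The labels do not tie each library to a separate mouse, whereas the study counts 5 to 6 mice per genotype for this tissue. The p-values measure the spread between these libraries, part of which may be technical. The study states a nominal depth of 20000000 paired-end reads of 150 bases. Totals for single libraries were not used here, and no counting interval is given. In the libraries, Ywhaz itself lay at 94.2 to 118 FPKM in wild-type and at 14.5 to 38.2 FPKM in 14-3-3ζKO samples, with no overlap. Wild-type replicates 1, 3 and 4 stood apart in the macrophage gene Cd68, at 461, 499 and 476 FPKM, against 41.8 to 84.9 FPKM in the other wild-type and 31.1 to 56.9 FPKM in the 14-3-3ζKO libraries.

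Among the P450 loci, 12 were at least 2-fold higher in 14-3-3ζKO tissue and 0 were at least 2-fold lower. All named loci served as background: of 15112 that reached 1 FPKM in a group, 8.61% were called higher and 4.31% were called lower. The 12 loci made up 33.3% of the 36 expressed members, but 10 members reached 1 FPKM through the 14-3-3ζKO value alone and only 2 through the wild-type value alone. Where both groups had to reach 1 FPKM, 4 of 24 members were called higher (16.7%), against 4.57% of all named loci under that rule, and 0 were called lower, against 3.89%. These 4 were Cyp2f2, Cyp2e1, Cyp3a11 and the Cyp2d11,Cyp2d22 row. The median log2 fold was 0.45 over the 36 expressed members and 0.03 over all named loci that reached 1 FPKM. Over the members with at least 1 FPKM in both groups it was 0.19, and over all 101 members it was 0.027. No median of all named loci was taken under these 2 rules. Of the 24 expressed members that were not called, 13 had a higher and 11 a lower value in 14-3-3ζKO tissue, and 17 members lay within 1.5-fold. In the plot of the P450 loci by genotype, the 2-fold lines mark the ratio without 1 FPKM added. All called loci lie above the upper line, but so do some others, among them Cyp4f14 (ratio 3.65) and Cyp26b1 (2.48). Of the loci not called, Cyp17a1 (0.415) and Cyp2c29 (0.348) lie below the lower line.

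**Figure D1:**
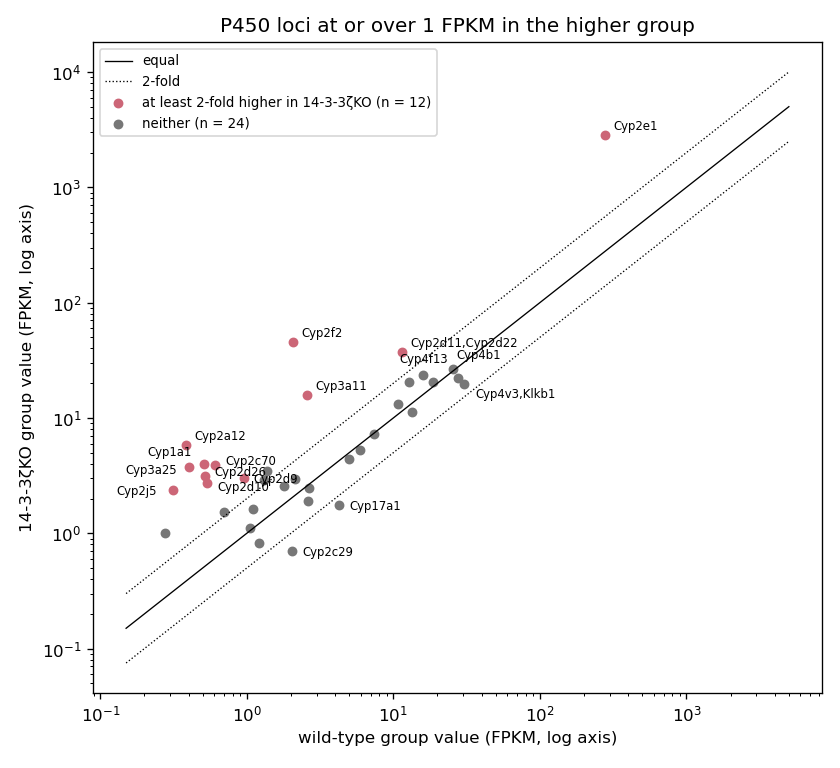
Each point is 1 of the 36 P450 loci with at least 1 FPKM in the higher group, with the wild-type value on the x axis and the 14-3-3ζKO value on the y axis (FPKM, log axes, 1 value per group). The 12 called loci (red) run from Cyp2j5 at 2.37 FPKM to Cyp2e1 at 2827 FPKM in 14-3-3ζKO tissue, and the other 24 (grey) lie mostly between the dotted 2-fold lines. The dotted lines mark the ratio without 1 FPKM added, whereas a call used values with 1 FPKM added.

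The promoters of 4 called genes are shown because these genes carried the largest values or the motifs searched below. Each is given in the direction of transcription from 250 bases before to 50 bases after the start annotated by RefSeq in build GRCm38.p6. The expression files used the earlier build NCBIM37, so these coordinates differ from the locus positions. Capitals mark every match to TATAAA (the core of a TATA box), CAAAGTCCA (a core of HNF4 sites) or AGGTCA (a half-site of nuclear receptors) on either strand. Cyp2f2 is at chr7:27119705-27120004 on the plus strand, Cyp2e1 at chr7:140763569-140763868 on the plus strand, Cyp3a11 at chr5:145879805-145880104 on the minus strand and Cyp2c70 at chr19:40187237-40187536 on the minus strand.
Cyp2f2: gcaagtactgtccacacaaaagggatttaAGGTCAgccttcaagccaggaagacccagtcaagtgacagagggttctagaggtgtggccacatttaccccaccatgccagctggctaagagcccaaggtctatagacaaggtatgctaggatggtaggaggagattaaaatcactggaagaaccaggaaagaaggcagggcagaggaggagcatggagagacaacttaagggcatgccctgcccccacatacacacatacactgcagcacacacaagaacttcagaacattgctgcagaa
Cyp2e1: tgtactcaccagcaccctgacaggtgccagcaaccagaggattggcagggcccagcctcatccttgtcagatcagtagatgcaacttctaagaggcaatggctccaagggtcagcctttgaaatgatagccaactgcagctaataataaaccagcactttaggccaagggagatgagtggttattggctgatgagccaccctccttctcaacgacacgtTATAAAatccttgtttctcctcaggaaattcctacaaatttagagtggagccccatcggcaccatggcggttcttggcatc
Cyp3a11: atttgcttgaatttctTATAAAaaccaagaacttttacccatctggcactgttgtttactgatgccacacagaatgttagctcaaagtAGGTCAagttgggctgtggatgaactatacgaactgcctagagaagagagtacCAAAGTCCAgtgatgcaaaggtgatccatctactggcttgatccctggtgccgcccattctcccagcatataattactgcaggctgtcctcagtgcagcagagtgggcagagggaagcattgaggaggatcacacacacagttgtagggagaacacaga
Cyp2c70: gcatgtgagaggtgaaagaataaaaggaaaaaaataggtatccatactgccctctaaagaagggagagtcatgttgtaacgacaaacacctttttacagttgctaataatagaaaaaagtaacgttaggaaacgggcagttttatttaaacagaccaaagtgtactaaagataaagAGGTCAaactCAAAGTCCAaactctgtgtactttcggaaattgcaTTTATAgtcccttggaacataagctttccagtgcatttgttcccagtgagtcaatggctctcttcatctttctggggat

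The Cyp2e1 promoter held TATAAA 31 bases before the start, and the Cyp2c70 promoter held it on the opposite strand, read as TTTATA, 29 bases before. In Cyp3a11 the only TATAAA began 234 bases before the start, and in Cyp2f2 these letters were not found. Of the 103 symbols, 74 had a promoter in the RefSeq table, among them 12 of the 13 in called rows (Cyp2d22 had none). A P450 gene was counted once, with a match in any of its promoters, whereas the share over all genes is per promoter. These units differ, and a gene with several promoters has more chances of a match. TATAAA was present in 10 of these 12 genes, in 23 of the 62 other P450 genes and in 13.6% of 32851 promoters of all genes. CAAAGTCCA was present in 2 of the 12, in 9 of the 62 and in 0.475% of all promoters. AGGTCA was found in 5 of the 12, in 15 of the 62 and in 16.3% of all. TTGCNNAA, a C/EBP sequence, was found in 1 of the 12 (Cyp3a25), in 16 of the 62 and in 10.8% of all. The HNF1 core was found in 0 of the 12, in 2 of the 62 and in 0.399% of all. TNGCGTG, the core bound by the aryl hydrocarbon receptor, was found in 0 of the 12, in 1 of the 62 and in 5.07% of all. Both strands were searched for each motif, and promoters of neighbouring paralogues share descent and are not independent.

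Cyp2f2 converts naphthalene and similar compounds to reactive epoxides, and is known from the club cells of the mouse airway and from mouse liver. Its locus lies at chr7:27904928-27918679 on the plus strand (NCBIM37). In wild-type replicates 1 to 6 it measured 4.48, 2.87, 0.511, 0.887, 3.10 and 0.629 FPKM. In 14-3-3ζKO replicates 1 to 5 it measured 19.3, 78.2, 10.3, 47.1 and 72.9 FPKM. The groups did not overlap, and the lowest 14-3-3ζKO library, replicate 3, lay above the highest wild-type library, replicate 1. Within the wild-type group, the libraries with high Cd68 included both the highest and the lowest Cyp2f2 values. The wild-type mean was 2.08 ± 1.64 FPKM (SD, n = 6), and the mean of the 14-3-3ζKO libraries was 45.5 ± 30.6 FPKM (SD, n = 5).

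On the log2(FPKM + 1) scale the Cyp2f2 means differed by 3.75 ± 0.64 (SE). An exact two-sided permutation test of this difference gave p = 0.00216, the smallest that the splits of 11 libraries allow, and an adjusted p of 0.0399 (Benjamini-Hochberg over 86 loci). These 86 loci were those with values per library, all of them marked by the authors' own test on these libraries, so this p-value is not independent evidence of a difference. In the same test 17.4% of the 86 loci were called higher and 47.7% lower in 14-3-3ζKO tissue. Leaving out 1 library at a time, the log2 difference stayed between 3.47 and 4.17. The adjusted exact p passed 0.05 without 14-3-3ζKO replicate 1 (0.0738), 2 (0.0594), 4 (0.0585) or 5 (0.0709). In each of these runs the exact p was 0.00476, the smallest of 210 splits. The adjusted value could therefore not show how far the difference rested on the library left out. Without the 3 wild-type libraries of high Cd68 together, the difference was 3.62, with an exact p of 0.0179, the smallest of 56 splits, and an adjusted p of 0.118. By limma the adjusted p was 0.00114 with all libraries and 0.0197 without those 3.

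The loci whose libraries were ordered most like those of Cyp2f2 were found by counting, over the 55 pairs of libraries, how often both placed the same library higher. Gsta3, a glutathione transferase, followed the order of Cyp2f2 in 50 of 55 pairs, and in 21 of the 25 pairs within a genotype. In the 14-3-3ζKO group it followed Cyp2f2 in 10 of 10 pairs. Next came the carboxylesterase Ces1f with 46 pairs, 19 of them within a genotype, and Acacb, an acetyl-CoA carboxylase that curbs fatty acid oxidation, with 46 and 18. Apold1 had 45 pairs, with 16 within a genotype, and the SNORA71,Snhg11 row had 44, with 16. An unnamed locus also had 44 pairs, and was placed after that row because 14 of them were within a genotype. The median over the other 85 loci was 18 of 55. Loci higher in 14-3-3ζKO tissue share most of the 30 pairs between genotypes with Cyp2f2 by their direction alone.

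Gsta3 ran from 28.0 to 134 FPKM in wild-type libraries, and measured 200.4, 299.6, 96.0, 241 and 264 FPKM in 14-3-3ζKO replicates 1 to 5. Ces1f ran from 7.41 to 52.7 FPKM in wild-type libraries and measured 165, 172, 23.6, 174 and 125 FPKM in 14-3-3ζKO replicates 1 to 5. Replicate 3 was the lowest 14-3-3ζKO library for Cyp2f2, Gsta3 and Ces1f, and it lay inside the wild-type range for Gsta3 and Ces1f but above it for Cyp2f2. The plot of values per library shows this beside Cd68.

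**Figure D2:**
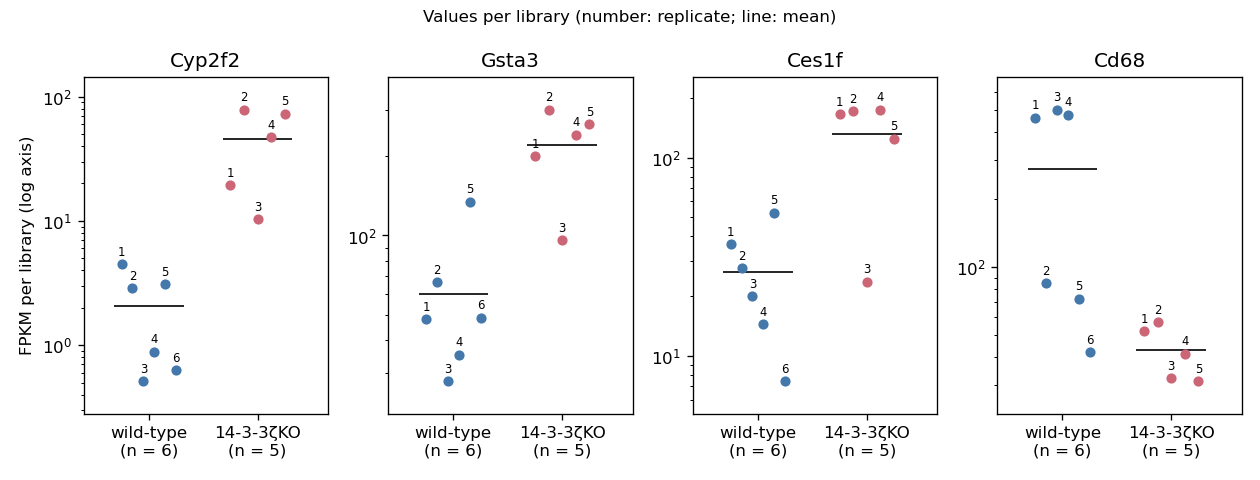
FPKM of each library (log axes, a separate scale per panel) for Cyp2f2, Gsta3, Ces1f and the macrophage gene Cd68, with the 6 wild-type libraries in blue, the 5 14-3-3ζKO libraries in red, replicate numbers above the points and a line at the mean. For Cyp2f2 the highest wild-type library reads 4.48 FPKM and the lowest 14-3-3ζKO library 10.3 FPKM, whereas wild-type replicates 1, 3 and 4 stand apart only in the Cd68 panel.

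Cyp2e1, which oxidises ethanol, acetone and small solvents, was the P450 of highest level in both genotypes. Its group value was 279 FPKM in wild-type and 2827 FPKM in 14-3-3ζKO tissue, a ratio of 10.1 and a log2 fold of 3.34. Like every called P450 locus but Cyp2f2, Cyp2e1 was not among the 86 loci marked by the authors' test. It had no values per library, so how far single libraries carried the group value is not known. The summed P450 level was 506 FPKM in wild-type and 3166 FPKM in 14-3-3ζKO tissue, and Cyp2e1 made up 55.1% and 89.3% of it. Without Cyp2e1 the sums were 227 and 339 FPKM. Cyp2f2 stood at rank 19 of the 101 loci in wild-type tissue and at rank 2 in 14-3-3ζKO tissue.

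Among the enzymes of foreign compound metabolism, 13 of 36 loci were expressed, and 10 of these were called higher. Over all named loci that reached 1 FPKM in a group, 8.61% were called higher. Cyp2a12, Cyp1a1, Cyp3a25, Cyp2d9, Cyp2d10 and Cyp2d26 reached 1 FPKM through the 14-3-3ζKO value alone. The counts of this role were therefore in part set by the floor. Cyp3a11, the main drug-metabolising Cyp3a enzyme of mouse liver, had 2.57 FPKM in wild-type and 15.7 FPKM in 14-3-3ζKO tissue, a log2 fold of 2.22. Cyp3a25, its relative on the same chromosome, had 0.401 and 3.74 FPKM. The other 7 Cyp3a loci were under 1 FPKM in both groups. Cyp2a12, which hydroxylates testosterone and secondary bile acids in mouse liver, had 0.384 and 5.80 FPKM, a log2 fold of 2.30. Cyp1a1, which attacks polycyclic aromatic hydrocarbons, had 0.507 and 3.95 FPKM, while its neighbour Cyp1a2 had 0.740 and 0.162 FPKM and was not counted as expressed. Cyp1b1, an oestrogen- and hydrocarbon-metabolising enzyme found mostly outside liver, had 10.7 and 13.1 FPKM and was not called. Cyp2s1 with 1.31 and 2.88 FPKM, and Cyp2a5 with 1.21 and 0.826 FPKM, were likewise not called. All 5 Cyp2b loci, the phenobarbital-inducible subfamily of liver, were under 1 FPKM and summed to 0.657 FPKM in wild-type and 0.766 FPKM in 14-3-3ζKO tissue.

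The Cyp2d subfamily, whose human counterpart CYP2D6 clears many drugs, had 8 loci, of which 4 were expressed and called higher. Cyp2d9, Cyp2d10 and Cyp2d26 reached 1 FPKM through the 14-3-3ζKO value alone, so their call was in part set by the floor, and only the row of Cyp2d11 and Cyp2d22 reached it in both groups. The row of Cyp2d11 and Cyp2d22 had 11.4 and 37.6 FPKM, a log2 fold of 1.64, and its value belongs to both genes together. Cyp2d9, a male-dominant testosterone hydroxylase of mouse liver, had 0.952 and 3.03 FPKM. Cyp2d10 had 0.534 and 2.74 FPKM, and Cyp2d26 had 0.514 and 3.14 FPKM. Apart from Cyp2d26, these rows were given the same span, chr15:82200958-82470684 (NCBIM37), shared with Cyp2d12 and Cyp2d34, so the division of reads between them is uncertain. Transcripts of Cyp2d10 shared 6.41% of their 150-base windows with another P450 gene, and those of Cyp2d11 shared 5.62%. For Cyp2a12 this share was 3.78%, for Cyp2d9 1.60% and for Cyp3a25 0.702%, and for the other 8 called genes no window was shared.

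Among the fatty acid oxygenases, 14 of 44 loci were expressed and 2 were called higher. The share called higher over all named loci that reached 1 FPKM was 8.61%. Their summed level was 118 FPKM in wild-type and 129 FPKM in 14-3-3ζKO tissue, and the median log2 fold over the expressed loci was 0.21. The called loci were Cyp2j5, an arachidonic acid epoxygenase of kidney and liver, with 0.315 and 2.37 FPKM, and Cyp2c70 with 0.606 and 3.92 FPKM. Both reached 1 FPKM through the 14-3-3ζKO value alone. Cyp2c70, grouped here by its subfamily, is best known for making muricholic bile acids in mouse liver. Cyp4b1, a fatty acid hydroxylase best known from lung, had 25.4 and 26.7 FPKM. The leukotriene- and fatty acid-oxidising Cyp4f subfamily had 5 expressed loci of 8 and 0 calls. Its highest member, Cyp4f13, had 15.8 and 23.6 FPKM, the row of Cyp4f16 and Cyp4f17 had 12.7 and 20.6 FPKM, and Cyp4f18, an enzyme of myeloid cells, had 5.96 and 5.25 FPKM. The row naming Cyp4v3 together with Klkb1, the plasma prekallikrein gene, had 30.1 and 19.6 FPKM, and the part of each gene cannot be told apart. Cyp2j6 had 7.43 and 7.24 FPKM, and Cyp2j9 had 4.99 and 4.45 FPKM. Cyp2c44, an epoxygenase, had 1.78 and 2.55 FPKM, whereas Cyp2c29, an epoxygenase abundant in mouse liver, had 2.04 and 0.708 FPKM, a log2 fold of -0.83. All 9 Cyp4a loci, classical targets of the fatty acid receptor PPARα in liver, were under 1 FPKM and summed to 1.67 and 1.84 FPKM.

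Of the 10 loci of sterol, bile acid and vitamin D metabolism, 5 were expressed and 0 were called. So few loci cannot show a departure from the 8.61% called higher and 4.31% called lower over all named loci that reached 1 FPKM. The summed level of the 10 loci was 53.4 FPKM in wild-type and 50.1 FPKM in 14-3-3ζKO tissue. Cyp27a1, a mitochondrial sterol hydroxylase, had 27.5 and 22.2 FPKM, and Cyp51, the lanosterol demethylase of cholesterol synthesis, had 18.8 and 20.4 FPKM. The oxysterol hydroxylases Cyp7b1 and Cyp39a1 had 1.10 and 1.64 FPKM, and 2.65 and 2.47 FPKM. Cyp2r1, which starts the activation of vitamin D, had 2.63 and 1.92 FPKM. Cyp7a1, the rate-limiting enzyme of bile acid synthesis in liver, was under 1 FPKM in both groups, at 0.00295 and 0.0217 FPKM. Cyp8b1, a later enzyme on the way to cholic acid, had 0.329 and 0.659 FPKM.

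Of the 7 steroid hormone loci 2 were expressed, of the 3 retinoic acid loci 1 was expressed, and 0 were called. These counts are too small to set against the 8.61% called higher and 4.31% called lower over all named loci that reached 1 FPKM. Cyp17a1, which opens the way to androgens, had 4.27 FPKM in wild-type and 1.78 FPKM in 14-3-3ζKO tissue, a log2 fold of -0.93, the lowest among the expressed members. Cyp11a1, which cuts the side chain of cholesterol in the first step of steroid synthesis, had 0.698 and 0.928 FPKM, and the aromatase Cyp19a1 had 0.00359 and 0.0734 FPKM. The adrenal enzymes Cyp11b1 and Cyp11b2 were listed at 0 in both groups. Cyp26b1, which clears retinoic acid, had 1.38 and 3.43 FPKM and a log2 fold of 0.90. Nearest to a call from outside were Cyp17a1 on the lower side and Cyp26b1 on the higher side, and nearest from inside was Cyp2d9 with 1.05. Cyp20a1, whose substrate is unknown, had 13.4 and 11.3 FPKM.

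**Figure D3:**
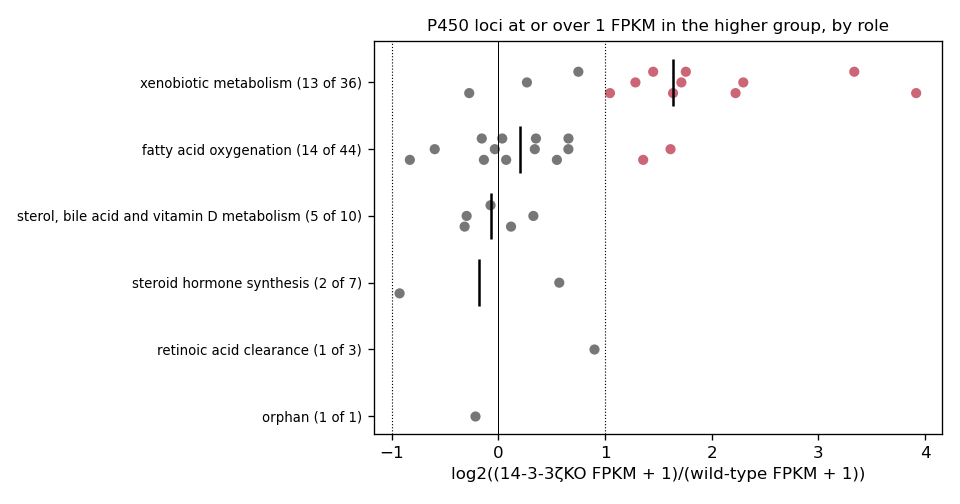
The log2 fold of the 36 expressed P450 loci (x axis, 14-3-3ζKO over wild-type, 1 FPKM added to each group value) by role (rows, with expressed loci of all loci in brackets), with called loci in red, the median of rows with several loci as a vertical bar and dotted lines at 2-fold. The red points are in the upper rows: 10 in foreign compound metabolism, where the median was 1.64, and 2 among the fatty acid oxygenases, where it was 0.21. Loci that reached 1 FPKM through the 14-3-3ζKO value alone are included, so the counts of red points were in part set by the floor.

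Cyp2f2 lies in a cluster of Cyp2 genes on chromosome 7, and 12 other P450 loci had their start within 2 Mb of its start. Of these, 3 were expressed: Cyp2a12, Cyp2s1 and Cyp2a5. Cyp2a12, which starts 90.8 kb before Cyp2f2, was the only called locus among the 12. The other 9 were under 1 FPKM in both groups, with a highest value of 0.574 FPKM. Cyp2t4, which starts 33.8 kb after Cyp2f2 on its other side, had 0.0901 and 0.0657 FPKM.

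**Figure D4:**
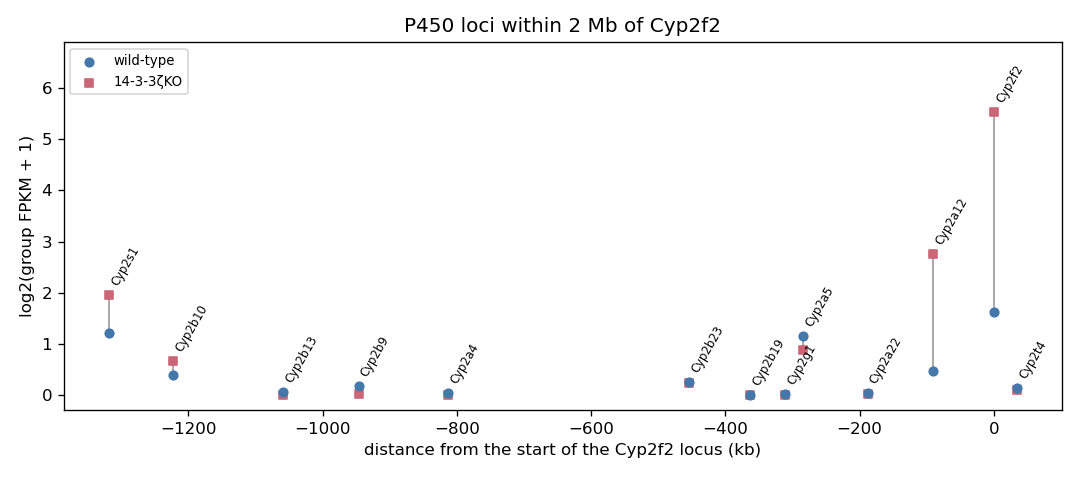
Group values of the 13 P450 loci within 2 Mb of Cyp2f2 as log2(FPKM + 1) (y axis) by distance of their start from that of Cyp2f2 (x axis, kb), with wild-type as blue circles and 14-3-3ζKO as red squares. Cyp2f2 (2.08 and 45.5 FPKM) and Cyp2a12 (0.384 and 5.80 FPKM) have 14-3-3ζKO values well above the wild-type values, whereas most loci between Cyp2s1 and Cyp2a12 are near 0 in both.

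Many of the called P450 genes are known from hepatocytes, and 12 hepatocyte genes, chosen with earlier results of these data known, were read beside them. Of the 12, 11 were called higher and 0 lower, against 8.61% higher and 4.31% lower over all named loci that reached 1 FPKM. Tat (0.257 and 3.92 FPKM) and Cps1 (0.298 and 6.12 FPKM) reached 1 FPKM through the 14-3-3ζKO value alone. The list sum was 278 FPKM in wild-type and 1065 FPKM in 14-3-3ζKO tissue. Alb, which encodes serum albumin, had 28.5 and 402 FPKM, Apoa1 had 8.60 and 101 FPKM, and Ttr had 6.39 and 53.6 FPKM. Pck1, which adipocytes also express, had 186 and 205 FPKM and was not called. The ratio between genotypes was 3.86 to 20.5 over the 11 called hepatocyte genes and 3.18 to 21.9 over the 12 called P450 loci. The highest hepatocyte ratio was that of Cps1. Per 100 FPKM of Alb, Cyp2e1 had 977 FPKM in wild-type and 704 FPKM in 14-3-3ζKO tissue, Cyp2f2 had 7.29 and 11.3 FPKM, and Cyp2a12 had 1.35 and 1.44 FPKM. In the other 10 of the 12 called loci, Cyp2e1 included, the level per Alb was lower in 14-3-3ζKO tissue, by ratios of 0.226 to 0.720. The hepatocyte genes had 1 value per group, so whether they followed Cyp2f2 from library to library could not be examined, and their part in the P450 differences was not tested. Of other P450 genes known from liver, Cyp2c29 was expressed and not called. Cyp1a2, Cyp7a1 and the Cyp4a loci were under 1 FPKM in both groups, where no call was possible. Cyp2c29, Cyp1a2 and Cyp7a1 were named with their values in view.

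**Figure D5:**
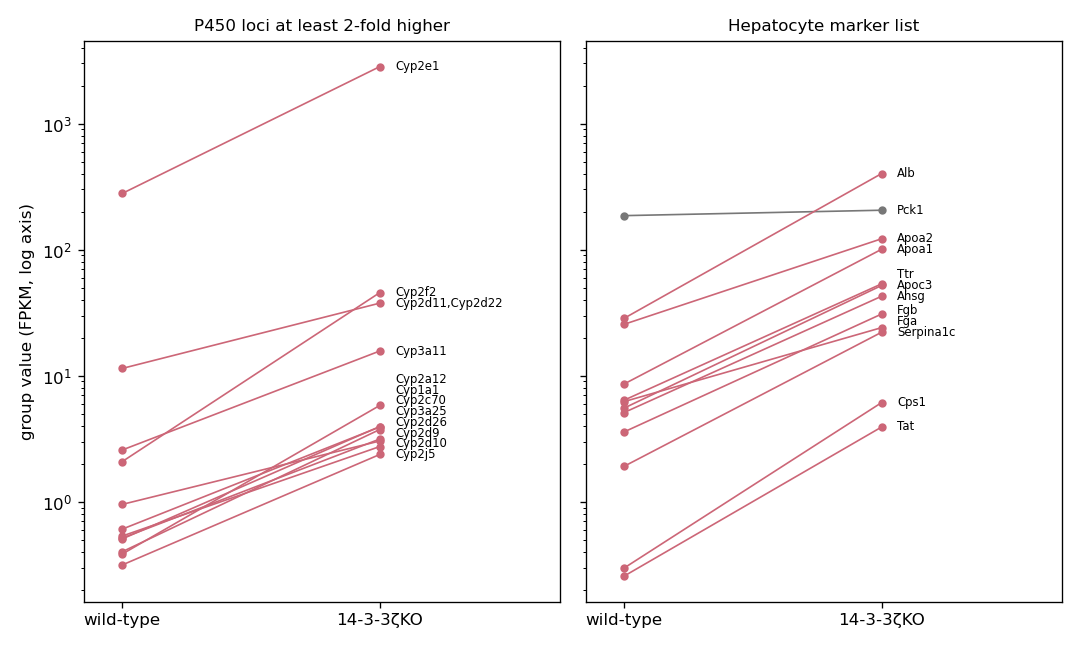
Group values in wild-type and 14-3-3ζKO tissue (FPKM, log axis, 1 value per group) of the 12 called P450 loci on the left and the 12 genes of the hepatocyte list on the right, a line joining both values of a gene and names spread apart for legibility. Red lines mark a ratio of at least 2, which all but Pck1 (186 and 205 FPKM, grey) reach.

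Lists for other cell types were read in the same way, and their part in the P450 differences was not tested. Their counts stand beside 8.61% called higher and 4.31% called lower over all named loci that reached 1 FPKM in a group. Of the airway club cell list, Scgb1a1 had 0.161 and 0.950 FPKM and Scgb3a2, Sftpb and Bpifa1 were at or near 0. Only Cbr2 and Aldh1a1 of its 7 genes were expressed, and neither was called. Of 8 Leydig and adrenal genes, 3 were expressed and 2 were called higher, Fdx1 with 31.7 and 64.4 FPKM and the row of Insl3 with Jak3, which cannot be split. Genes of the neighbouring epididymis were high in both groups: the 15 listed summed to 14366 FPKM in wild-type and 8690 FPKM in 14-3-3ζKO tissue, with 2 called lower, 0 called higher and Lcn5 at 2737 and 2141 FPKM. Of 12 macrophage genes, 11 were called lower, and their sum was 4315 and 756 FPKM. The defining adipocyte genes were abundant, with Adipoq at 1474 and 1607 FPKM, and of the 10 listed, 3 were called higher (Fabp4, Retn, Cfd) and 1 lower (Lep). Among the endothelial, mesothelial and stromal lists of 6 genes each, Cldn5 and Krt19 were called higher and Lum lower, and the median log2 fold of the mesothelial list was 0.92. In a bulk tissue, a change in the number of cells of 1 type and a change in RNA per cell cannot be told apart.

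Of 11 genes whose products supply P450 enzymes with electrons and haem, 1 was called higher, Fdx1, and 1 lower, the haem-degrading Hmox1 with 115 and 53.8 FPKM. These counts are near the shares over all named loci that reached 1 FPKM, 8.61% higher and 4.31% lower. Por, the reductase of all microsomal P450 enzymes, had 76.6 and 101 FPKM, Cyb5 had 634 and 1073 FPKM, and the haem-binding partner Pgrmc1 had 195 and 194 FPKM. Of the P450 family members that carry other names, Tbxas1, the thromboxane synthase of platelets and macrophages, was called lower with 30.9 and 5.19 FPKM. Ptgis, the prostacyclin synthase, had 8.60 and 11.7 FPKM.

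Of 17 receptors and factors known to control P450 genes, 14 were expressed and 1 was called higher, Hnf4a, a hepatocyte factor with 0.651 and 3.51 FPKM. Hnf4a reached 1 FPKM through the 14-3-3ζKO value alone. A count of 1 in 14 is near the 8.61% called higher over all named loci that reached 1 FPKM. The xenobiotic receptors Nr1i2 and Nr1i3 were under 1 FPKM, Ahr, the receptor upstream of Cyp1a1, had 2.27 and 2.68 FPKM, and Ppara had 2.06 and 2.57 FPKM. Of 20 genes that process P450 products or work beside them, 8 were called higher and 0 lower, with a median log2 fold of 0.82. Over all named loci that reached 1 FPKM in a group, 8.61% were called higher and 4.31% lower, with a median of 0.03. Ephx2, the soluble hydrolase of fatty acid epoxides, had 67.7 and 204 FPKM, and Gsta4 had 26.4 and 70.4 FPKM. Aldh1a3 had 15.6 and 33.9 FPKM, Fmo2 13.1 and 27.9 FPKM, Fmo5 11.8 and 28.1 FPKM, and Aox1 26.6 and 54.8 FPKM. The remaining 2 were Gsta3 and Ces1f, described above by library.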

How the data were processed

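The authors aligned reads of 11 libraries with TopHat2 2.0.11 to build NCBIM37 and quantified loci with Cufflinks 2.2.0 and Cuffdiff, as the submitters' processing notes name them. The deposited FPKM comprised 1 value per group for 42815 loci and values per library for 86 loci, those marked by the authors' test. The sources used here do not give how libraries were scaled to each other. The deposited fold changes, test statistics, p-values and q-values are the authors' own comparison and were not used, beyond checking that mark.

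Libraries were grouped by title. Group values were compared as log2(FPKM + 1) with a floor of 1 FPKM in the higher group and without a test. Cyp2f2 was compared by an exact permutation test (scipy 1.17.1, numpy 2.4.6, pandas 2.3.3, python 3.11.15) and by limma 3.58.1 (R 4.3.3) over 86 loci. The scripts were tested on simulated data. Promoters came from RefSeq (GRCm38.p6), and transcript windows from an NCBIM37 annotation. Plots used matplotlib 3.10.9.

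P450 members, role groups and gene lists were chosen with earlier results of these data known. Named were all called P450 loci, the 12 of highest mean FPKM, Cyp2f2, its neighbours within 2 Mb, the highest of each role or subfamily, called list members or else the highest 2, and the 5 loci ordered most like Cyp2f2. Cyp1a2, Cyp2c29, Cyp17a1, Cyp7a1, Cyp8b1, Cyp11a1, Cyp19a1 and some marker and partner genes were added with their values in view. Other pseudocounts, floors and folds, recentring, shared rows left out, libraries left out and a replicate block were tried as alternatives.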

Additional observations from a re-analysis of the deposited data

Results flagged for a closer look

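Wild-type replicate 5 stood apart from the other 5 wild-type libraries in 2 of the 5 loci ordered most like Cyp2f2. It measured 134.2 FPKM for Gsta3, against 28.0 to 66.5 FPKM in the others, and 26.9 FPKM for the SNORA71,Snhg11 row, against 5.17 to 13.0 FPKM. It was not the highest wild-type library for Cyp2f2, where it measured 3.10 FPKM against 4.48 FPKM in replicate 1. Of 16 groups of values examined for a library far from the rest, these 2 were found, and chance alone gives about 5% of such groups.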

How the results depend on the processing

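The count of P450 loci at least 2-fold higher was 5 with a floor of 5 FPKM and 4 with a floor of 1 FPKM in both groups, a rule added after the data were seen. It stayed within 1.5 times of 12 (8 to 16) under the other 8 settings. The count at least 2-fold lower was 2 with a pseudocount of 0.1 FPKM, 3 with a fold of 1.5 and 0 otherwise. The median log2 fold was 0.55 with a pseudocount of 0.1 FPKM, 0.027 without a floor, 0.27 with a floor of 5 FPKM, 0.19 with the floor in both groups and 0.34 without the rows of the shared Cyp2d span, which was also added later. Each of the 12 called loci kept its call after recentring by the median of all named loci that reached 1 FPKM, a shift of only 0.0345. Each also kept it with the lower pseudocount, which can only enlarge a fold, so no call could be lost there. The Cyp2f2 difference of 3.75 was 3.47 to 4.17 with 1 library left out, with adjusted exact p of 0.0175 to 0.0738 and adjusted limma p of 0.000487 to 0.00695. It was 3.62 without wild-type replicates 1, 3 and 4 (adjusted exact p = 0.118). Fewer splits were possible in each run with libraries left out than with all libraries.

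The correlations of same-numbered deviations over the 86 loci were -0.49, -0.04, 0.10, 0.57 and -0.03. As these loci were chosen by the authors' test, the values cannot decide whether libraries of the same number were paired. With the replicate number as a block, limma gave a Cyp2f2 difference of 3.60 and an adjusted p of 0.000705, which left the call in place. Totals per library were not used, so values near 1 FPKM carry no counting interval here.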

Other observations

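The 65 P450 loci under 1 FPKM in both groups reached at most 0.956 FPKM. Of all 101 loci, 10 were listed at 0 in both groups, 7 in wild-type tissue only and 5 in 14-3-3ζKO tissue only. Among the 9 Cyp3a loci, Cyp3a13 was the highest of those under the floor, with 0.0836 FPKM in wild-type and 0.784 FPKM in 14-3-3ζKO tissue. The 101 loci lay on 15 chromosomes. Chromosome 15 held 10 loci, of which 4 were expressed and called higher, 3 of them through the 14-3-3ζKO value alone. Chromosome 17 held 11 loci, of which 7 were expressed and 0 called. The share called higher over all named loci that reached 1 FPKM was 8.61%.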
